A study of Mus musculus with 282 samples.

Results

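Circadian clock genes were followed at 10 gene rows of a table of hypothalamus transcript levels from 282 mice. They were chosen by symbol as the rows of the merged assembly named Per1, Per2, Per3, Cry1, Cry2, Arntl, Nr1d1, Nr1d2, Dbp and Tef, 10 of 14079 gene rows. Dbp shared its row with its neighbour Car11, so its level was taken as the sum of the 4 transcripts named Dbp. The mice were males of 99 strains of the Hybrid Mouse Diversity Panel, a collection of inbred and recombinant inbred strains, and each hypothalamus was sequenced as 1 mRNA library. All mice were fed a high fat diet, which the study describes as also high in sugar, so no comparison with another diet was possible. By name the strains fell into 43 BXD, 18 AXB/BXA, 7 CXB and 6 BXH recombinant inbred strains and 25 other inbred strains. In 85 strains 3 mice were measured, in 12 strains 2, and in 2 strains 1, and the labels list them as separate mice. The labels gave neither the age of the mice nor the hour of collection, so the levels of these genes could not be placed in the daily cycle.

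The circadian clock is a feedback loop of transcription that runs in most cells. ARNTL, also called BMAL1, binds E-box sequences together with CLOCK and switches on the Per, Cry and Nr1d genes, and the PER and CRY proteins then block ARNTL and CLOCK. NR1D1 and NR1D2, the REV-ERB receptors, repress Arntl through a second loop, and DBP and TEF are transcription factors that bind D-boxes and carry the rhythm to other genes. The suprachiasmatic nucleus of the hypothalamus sets the phase of the clock for the whole body, but it is a small share of the tissue sampled here, and in a bulk sample fewer cells of a type and less RNA per cell cannot be told apart.

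A pair of libraries stood apart from the rest. Levels are given in FPKM, fragments per kilobase of transcript scaled to library size, which can be compared between genes because they are per length. The summed gene FPKM was 792675 in mouse OB-547, from BXD-12/TyJ, and 463355 in mouse OB-422, from CXB-3/ByJ, where the next library had 359858 and the median was 337422. In mouse OB-547 Dbp was the highest of all mice at 121.6 FPKM, and Per2 at 1.25, Per3 at 3.67 and Arntl at 5.14 FPKM were the lowest. Mouse OB-422 had the next highest Dbp level, 90.3 FPKM. Results that rest on these libraries are given with and without mouse OB-547.

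The output factors and REV-ERB receptors were the more abundant clock genes, and the activator and most of the repressors were lower. Tef was highest with a mean of 59.7 ± 5.87 FPKM (SD, n = 282 mice), with a lowest value of 40.7, a median of 59.9 and a highest of 80.2. Nr1d1 had a mean of 37.7 ± 4.50 FPKM, with 25.3, 37.6 and 50.1 as lowest, median and highest. Dbp had a mean of 36.2 ± 9.55 FPKM and ran from 17.8 through a median of 35.2 to 121.6. Dbp therefore had the widest spread of the 10 genes on this scale. Cry2, one of the cryptochrome repressors, had a mean of 30.5 ± 2.40 FPKM (24.3, 30.4 and 37.2). Nr1d2 had nearly the same mean, 30.3 ± 3.71 FPKM (21.5, 30.3 and 41.4). Cry2 was above Nr1d2 in only 153 of the mice and 48 of 99 strain means, so this pair had no stable order.

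The period genes and the activator formed a lower tier. Per1 had a mean of 13.2 ± 2.29 FPKM (8.47, 13.1 and 21.8) and Per3 one of 11.3 ± 1.57 FPKM (3.67, 11.1 and 15.5). Arntl, the activator, had a mean of 8.42 ± 1.04 FPKM (5.14, 8.33 and 11.6). Cry1 followed at 6.76 ± 0.728 FPKM (4.88, 6.68 and 9.52), and Per2 was lowest at 5.16 ± 0.741 FPKM (1.25, 5.16 and 7.5). Without mouse OB-547 the lowest values were 3.29 FPKM for Per2, 7.65 for Per3 and 5.85 for Arntl. The gaps between tiers were wide: Tef was above Nr1d1, and Nr1d2 above Per1, in each mouse placed in a strain. Between neighbours in the order the ranks were less fixed, with Nr1d1 above Dbp in 182 mice, Dbp above Cry2 in 219, Per1 above Per3 in 216, Per3 above Arntl in 262, Arntl above Cry1 in 260 and Cry1 above Per2 in 269.

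**Figure D1:**
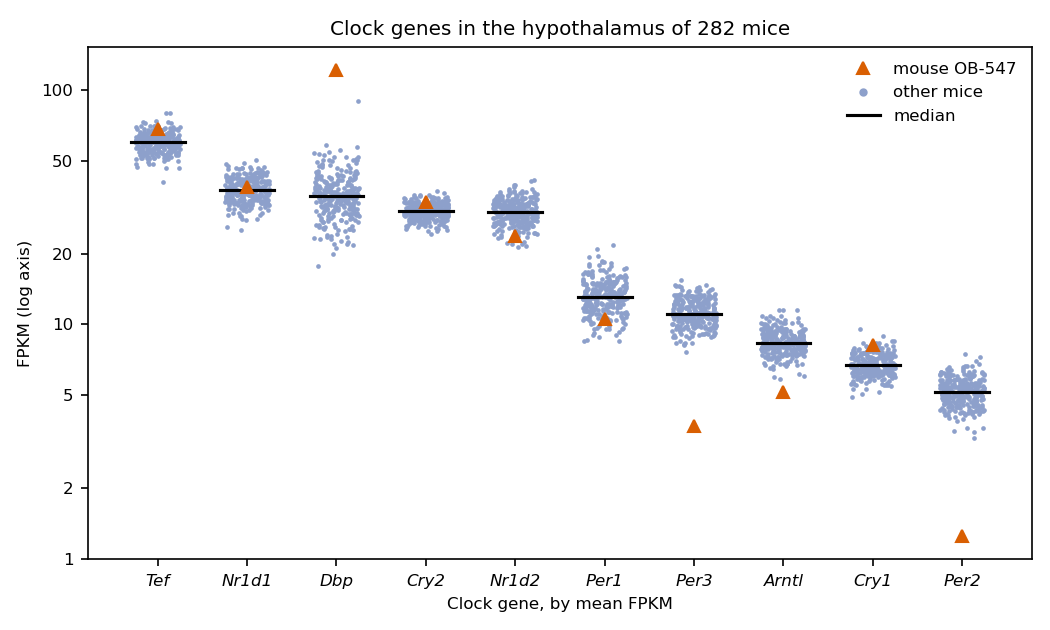
Level of each clock gene (x axis, ordered by mean) in FPKM on a log axis in each of 282 mice (points), with the median as a bar and mouse OB-547 as a triangle. Tef lies between 40.7 and 80.2 FPKM in all mice, and mouse OB-547 is highest for Dbp and lowest for Per2, Per3 and Arntl.

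In genome build mm10 the 10 genes lie on 8 chromosomes, with 39 transcripts of the table between them. The activator Arntl lies at chr7:113207465-113314122 on the plus strand and Dbp on the same chromosome at chr7:45705088-45710155, plus strand. Per1 at chr11:69095217-69111414, plus strand, and Nr1d1 at chr11:98763298-98775368, minus strand, share chromosome 11. The other period genes are Per2 at chr1:91415801-91459330 and Per3 at chr4:151002569-151044665, both on the minus strand. Cry1 lies at chr10:85131700-85185054, Cry2 at chr2:92403485-92434043 and Nr1d2 at chr14:18203998-18239500, all on the minus strand, and Tef at chr15:81802421-81827192 on the plus strand. The libraries did not keep the strand, and Nr1d1 overlaps the 3′ end of Thra, a thyroid hormone receptor gene on the opposite strand with a mean of 181 FPKM. The deviations of Nr1d1 and Thra from their strain means had an r of 0.01 without mouse OB-547. Dbp overlaps Sphk2, a sphingosine kinase gene on the opposite strand with a mean of 9.20 FPKM, and here r was 0.11 within strains and -0.38 over strain means. For both genes, reads of the partners cannot be told apart.

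Because the members moved together in part, their upstream sequences were searched for the elements through which the clock acts. RefSeq promoters in build GRCm38.p6, from 250 bases before to 50 bases after a start, matched 9 of the 10 genes with 12 promoters, and Per2 had no entry. The motifs were read on both strands: the E-box CACGTG, bound by ARNTL and CLOCK, its weaker form the E′-box CACGTT, the D-box TTANNTAA, bound by DBP and TEF, the cyclic AMP element TGACGTCA, and the RORE, bound by REV-ERB receptors. These motifs do not overlap each other in the sequences printed here. Of all 32851 promoters of the same length, 7.15% held the E-box, 4.68% the E′-box, 6.00% the D-box, 1.79% the cyclic AMP element and 0.384% the RORE. Among the promoters nearest the most abundant transcript of the 9 genes, 3 held an E-box (Per1, Cry1 and Tef), 3 an E′-box (Cry1, Cry2 and Nr1d1), 1 a D-box (Per3) and none of these promoters the other elements. The 250 bases before the start are given 5′ to 3′ for the 6 genes with a match, so that the element can be read in its context, with the motifs in capitals. AACGTG is the E′-box read on the other strand.
Per1: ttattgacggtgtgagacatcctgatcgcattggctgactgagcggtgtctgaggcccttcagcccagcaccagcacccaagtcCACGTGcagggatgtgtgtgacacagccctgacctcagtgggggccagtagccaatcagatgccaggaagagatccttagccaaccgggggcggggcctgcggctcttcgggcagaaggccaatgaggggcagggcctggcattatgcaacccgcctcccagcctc
Per3: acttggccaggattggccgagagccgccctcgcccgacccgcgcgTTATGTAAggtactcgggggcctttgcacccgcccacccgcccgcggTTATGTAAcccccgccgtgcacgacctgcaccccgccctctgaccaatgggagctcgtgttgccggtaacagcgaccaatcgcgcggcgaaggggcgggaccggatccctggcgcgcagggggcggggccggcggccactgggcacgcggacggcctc
Cry1: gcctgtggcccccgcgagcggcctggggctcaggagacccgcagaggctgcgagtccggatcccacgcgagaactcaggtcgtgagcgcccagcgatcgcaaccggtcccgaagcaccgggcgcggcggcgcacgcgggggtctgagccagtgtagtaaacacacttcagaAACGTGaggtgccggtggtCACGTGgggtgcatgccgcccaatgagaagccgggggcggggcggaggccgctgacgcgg
Cry2: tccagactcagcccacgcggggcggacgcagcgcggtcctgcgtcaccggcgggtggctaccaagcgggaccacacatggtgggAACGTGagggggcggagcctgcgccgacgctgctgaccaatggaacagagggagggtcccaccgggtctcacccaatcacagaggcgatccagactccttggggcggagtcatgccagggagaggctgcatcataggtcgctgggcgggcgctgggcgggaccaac
Nr1d1: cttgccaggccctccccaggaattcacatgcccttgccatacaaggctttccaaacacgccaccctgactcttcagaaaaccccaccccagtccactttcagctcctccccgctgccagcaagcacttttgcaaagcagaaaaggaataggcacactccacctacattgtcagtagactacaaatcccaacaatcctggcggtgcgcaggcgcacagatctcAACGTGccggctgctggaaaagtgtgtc
Tef: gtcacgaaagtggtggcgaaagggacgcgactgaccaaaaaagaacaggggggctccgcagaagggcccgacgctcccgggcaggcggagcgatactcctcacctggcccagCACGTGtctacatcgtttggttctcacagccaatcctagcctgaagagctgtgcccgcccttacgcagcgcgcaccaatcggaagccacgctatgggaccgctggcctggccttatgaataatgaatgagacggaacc

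In Per1 the E-box began 166 bases before the start at chr11:69098699-69098948, plus strand. Cry1, at chr10:85185055-85185304 on the minus strand, held both forms, the E-box at 60 bases and the E′-box at 79 bases before the start. The E′-box began at 166 bases in Cry2 (chr2:92434070-92434319, minus strand) and at 28 bases in Nr1d1 (chr11:98775378-98775627, minus strand). Per3, at chr4:151044666-151044915 on the minus strand, was the gene with 2 D-boxes, at 205 and 158 bases. In Tef (chr15:81811164-81811413, plus strand) the E-box began at 138 bases, and the promoter of its other listed start held an E-box at 127 bases and a D-box further upstream. The promoter of the second listed start of Arntl held a RORE just after that start, outside the bases printed here. A match is a description of the letters and says nothing on binding in these mice.

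The first question was how much of the variation of each clock gene lay between strains. Clock gene levels differed between strains for all 10 genes by the F test of limma over 99 strains at an adjusted p below 0.05, where 75.4% of all gene rows were called. A Kruskal-Wallis test over strains called the same 10, and 73.7% of all gene rows. The strain share of variance, the fraction of the log2 variance that lies between strains, was 0.613 for Nr1d2, the highest of the 10 in this fit. Cry2 followed at 0.524, Nr1d1 at 0.486, Per1 at 0.475, Dbp at 0.473, Per3 at 0.470, Arntl at 0.450, Per2 at 0.427 and Tef at 0.397. Among all genes the median share was 0.222, and 9 of the 10 clock genes were above it. Cry1 was the exception, with a share of 0.146 and an adjusted p of 0.0180. Its transcripts were alike in this: neither of the 2 was called. Without mouse OB-547, where 81.3% of all genes were called, the shares of Dbp and Per3 were 0.581 and 0.579, that of Per2 was 0.477, that of Arntl 0.478 and that of Tef 0.418, with 0.614 for Nr1d2 and 0.151 for Cry1. Leaving out replicate 1 or replicate 2 of each strain of 3 ended the call of Cry1, with adjusted p of 0.355 and 0.121. The order at the top depended on the processing: without replicate 2 Nr1d2 had 0.460, below Dbp at 0.565, Cry2 at 0.562, Per1 at 0.534, Per2 at 0.480 and Per3 at 0.473, and with quantile normalization it had 0.554 against 0.560 for Dbp.

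**Figure D2:**
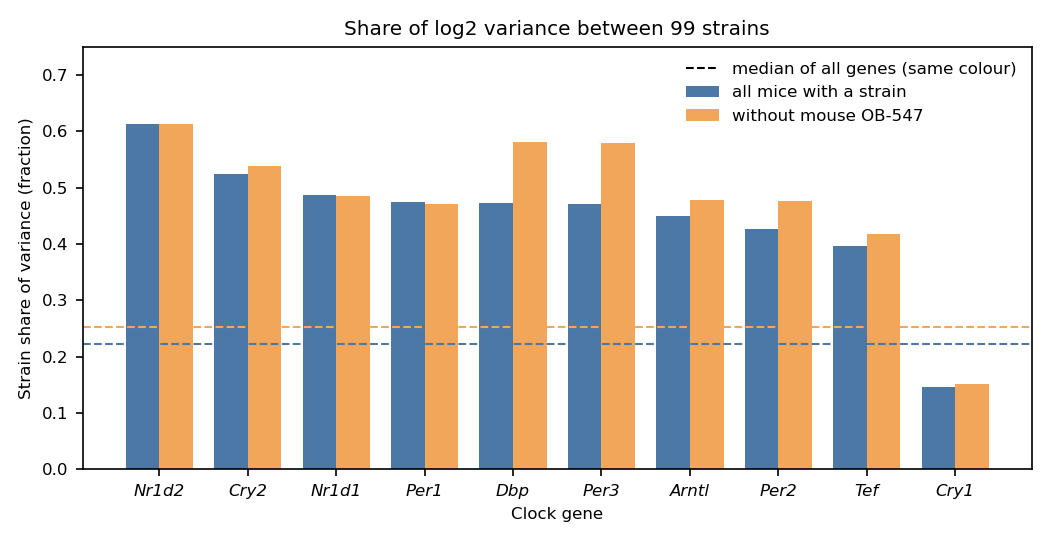
Share of the log2 variance that lies between 99 strains (y axis, fraction) for each clock gene, over all mice with a strain and without mouse OB-547 (280 mice), with the median of all genes as a dashed line in the same colour. In the fit over all mice Nr1d2 is highest at 0.613 and Cry1 lowest at 0.146, below the median of all genes of 0.222.

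The range over strain means in FPKM followed a different order from the shares. Dbp spanned 2.57-fold between its highest and lowest strain means, Per1 1.99-fold, Per2 1.98-fold and Arntl 1.82-fold. The strain of mouse OB-547 was at the end for Dbp and Per2, and without this mouse their folds were 2.45-fold and 1.68-fold. Without mouse OB-422 as well, Dbp spanned 2.32-fold. Per3 spanned 1.70-fold, Nr1d2 1.68-fold and Nr1d1 1.61-fold, while Cry1, Cry2 and Tef spanned 1.42, 1.41 and 1.41-fold. Cry2 therefore had a high strain share over a narrow range: the SD of its strain means was 0.0944 on the log2 scale, against 0.0764 within strains. For Cry1 the order was turned, with 0.0913 between strain means and 0.124 within strains. The SD of strain means also holds part of the spread between mice, because each mean is over few mice. It is therefore larger than the spread that lies between strains alone.

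Single strains carried these ranges, and the strains named here are ordered by their mean of log2(FPKM + 1). The mice of a strain often lay close together. For Nr1d2, whose protein represses Arntl, the 3 mice of BXD-19/TyJ had 22.0, 21.5 and 21.7 FPKM, the lowest strain mean. The CXB-11/HiAJ mice had 37.0, 35.7 and 35.1 FPKM, next to the highest mean of BXD60 with 41.0, 38.7 and 29.7. The BXD-19/TyJ and CXB-11/HiAJ mice did not overlap, while 1 mouse of BXD60 was below the median of all mice. The named strains were picked as the ends of the strain means of the same gene. A lack of overlap between low and high strains follows largely from that choice and is not a test of strain differences. For Nr1d1 the lowest strains were CXB-12/HiAJ (25.3, 31.1 and 31.5 FPKM) and BXD-11/TyJ (32.6 and 28.0). The highest were CBA/J (44.1, 48.7 and 48.5) and BXD-9/TyJ (50.1, 44.6 and 42.6). The low and high strains of Nr1d1 did not overlap, with the same limit from their choice.

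The output genes had some of the same strains at their ends. Dbp was lowest in BXD-11/TyJ (23.5 and 22.6 FPKM) and AXB-13/PgnJ (21.9, 23.8 and 24.2). It was highest in BXD-9/TyJ (51.9, 50.4 and 58.5) and KK/HlJ (51.9, 54.1 and 52.0). In BXD-12/TyJ the mice other than OB-547 had 28.4 and 27.8 FPKM of Dbp. BXD-11/TyJ and BXD-9/TyJ were thus at the same ends for Nr1d1 and Dbp. Tef, the other D-box factor, was lowest in BXD73 (40.7, 50.9 and 57 FPKM) and BXD-14/TyJ (51.8, 49.9 and 51.2). It was highest in BXD-24/TyJ (68.2, 73.3 and 67.7) and KK/HlJ (73.0, 68.6 and 67.3).

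Among the repressors, Per1 was lowest in BXD-38/TyJ (8.47, 8.61 and 9.20 FPKM) and BXA-12/PgnJ (11.3 and 8.80). LG/J had 15.2, 21.1 and 16.1 FPKM and BXD85 14.6, 19.6 and 17.4, the highest means of Per1. Mice of 1 strain differed more for Per1 in these high strains than in BXD-38/TyJ. Per2 was lowest in BXD-12/TyJ (4.19, 1.25 and 4.50 FPKM, where 1.25 is mouse OB-547) and in BXA-12/PgnJ (4.52 and 3.29). KK/HlJ (6.08, 6.14 and 7.5) and C57BL/6J (6.21, 6.77 and 6.29) were highest for Per2. KK/HlJ was thus among the highest strains for Per2, Dbp and Tef, and BXA-12/PgnJ among the lowest for Per1 and Per2. Per3 was lowest in BXD-12/TyJ (13.1, 3.67 and 9.63 FPKM), where 3.67 is mouse OB-547 and the other 2 mice lay on both sides of the median of all mice, and in BXA-4/PgnJ (7.65, 9.01 and 8.92), and highest in BXD-16/TyJ (14.6, 13.4 and 15.5) and CE/J (13.0, 14.5 and 14.1).

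Cry1 gave the least separated strains. Its lowest means were 5.58 FPKM in AXB-12/PgnJ, a strain of 1 mouse, and those of AXB-8/PgnJ with 5.03 and 6.83. Its highest were BXD-20/TyJ (7.07, 9.52 and 7.11 FPKM) and BXD-40/TyJ (8.12, 7.68 and 7.48). Cry2 was lowest in BXHA1 (25.3 and 25 FPKM) and BXD55 (26.2, 24.3 and 27.9), and highest in I/LnJ (35.5, 1 mouse) and SEA/GnJ (36.4, 34.7 and 35.0). The activator Arntl was lowest in SJL/J (6.16 and 6.45 FPKM) and BXD-16/TyJ (5.85, 7.10 and 7.41). It was highest in BXHA1 (11.5 and 11.5) and BXD66 (11.6, 9.37 and 10.3). Of the strains at the ends of Arntl, BXD-16/TyJ was highest for Per3 and BXHA1 lowest for Cry2. SJL/J and BXD66 were not among the strains named for the other clock genes, and Cry2 and Arntl were not a called pair over strain means.

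Taking other clock genes into account left the strain differences. With the first 2 principal components of the other 9 clock genes as covariates, each of the 10 genes was again called. In the fits that left out Nr1d2, Per1, Cry1, Tef, Arntl, Cry2, Per3, Nr1d1, Dbp and Per2 from the components, 85.4%, 83.3%, 83.2%, 83%, 82.9%, 82.8%, 82.2%, 82%, 78.5% and 78.1% of all genes were called. The strain share was then 0.610 for Nr1d2, 0.478 for Per3, 0.461 for Arntl and 0.459 for Cry2, and it was 0.384 for Nr1d1 and 0.294 for Tef. Cry1 had 0.187 in this fit.

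The founders of the recombinant sets were compared with C57BL/6J, the parent they share. Per2 was lower in DBA/2J, with 4.26, 4.33 and 4.53 FPKM against 6.21, 6.77 and 6.29 in C57BL/6J, and the groups did not overlap. The difference on the log2(FPKM + 1) scale was -0.47 ± 0.12 (SE, adjusted p = 0.00234), and 6.88% of all genes were called in this contrast. Per1 was lower in BALB/cJ, with 9.03, 12.9 and 9.56 FPKM against 11.7, 16.8 and 14.5, where the groups overlapped. That difference was -0.41 ± 0.14 (adjusted p = 0.0417, background 6.79%), and it lost the call when both strains were fitted alone, without BALB/cJ replicate 1, and without C57BL/6J replicate 2 or 3. All contrasts share the C57BL/6J mice, whose Per2 mean was the next to highest of the 99 strains. The other contrasts of Per2 were not called, with -0.33 ± 0.12 in BALB/cJ (adjusted p = 0.0676), -0.28 in C3H/HeJ (0.145) and -0.26 in A/J (0.185). No clock gene was called in A/J, where 8.01% of all genes were, or in C3H/HeJ, where 7.59% were. At an unadjusted limma p below 0.05 there was 1 of 10 in A/J, 2 of 10 in C3H/HeJ, 2 of 10 in DBA/2J and 4 of 10 in BALB/cJ. The share of all genes at this unadjusted threshold was not computed, so these counts are not a result about the clock genes.

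The deposited table also held the members as transcripts, start sites and coding sequences, where the strain test called 24 of 39 transcripts (46.8% of all transcripts), 19 of 29 start sites (50.5%) and 9 of 14 coding sequences (52.8%). The strain share of a gene was not that of each of its transcripts. For Dbp the transcript TCONS_00305613, with 4 exons and a mean of 24.0 FPKM, had a share of 0.640. The single Arntl transcript with 20 exons had 0.557. For Nr1d2 the main transcript TCONS_00107642 carried 59.3% of the level at 18.0 FPKM with a share of 0.133, and 0.225 without mouse OB-547. Its transcripts TCONS_00107638 (4.37 FPKM) and TCONS_00107643 (4.03 FPKM) had 0.372 and 0.353. The main Cry2 transcript, TCONS_00206221, made up 84% of the gene and had a share of 0.203, which rose to 0.352 when mouse OB-547 was left out. The most abundant Tef transcript, TCONS_00117595, at 23.6 FPKM had a share of 0.0521 and was not called (adjusted p = 0.274). Start sites of 1 gene could move against each other: those of Per1 named TSS11535 and TSS11536 had an r of -0.48 within strains and -0.57 over strain means. Such splits rest on the authors' assignment of reads to transcripts, and its error was not in the table.

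The next question was whether clock genes moved together among mice of 1 strain. Each gene was expressed as its deviation from the strain mean on the log2(FPKM + 1) scale, and Pearson's r, Spearman's rho and a two-sided permutation p from shuffles within strains were computed for 45 pairs. A pair was called where the limma slope of each gene on the other had an adjusted p below 0.05 over all genes, and the larger of both adjusted p is given. Over all mice 8 of 45 pairs were called, 6 positive and 2 negative, and without mouse OB-547 10 pairs, 9 positive and 1 negative, with 5 pairs called both times. The r ranged from -0.36 to 0.49 with a median of 0.02 over all mice, and from -0.25 to 0.45 without mouse OB-547.

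Cry2 was called with Nr1d1, Dbp and Tef, and Nr1d1 with Dbp, whether or not mouse OB-547 was included, while Dbp and Tef were not called with each other in either fit. Cry2 and Nr1d1, a cryptochrome and a REV-ERB receptor, had r = 0.45 and rho = 0.45 (permutation p = 1e-05, the smallest these shuffles can give, and adjusted p = 4.92e-08). Leaving out the 2 mice whose Cry2 lay farthest from its median gave an r of 0.44. Cry2 and Tef had r = 0.41 and rho = 0.37 (permutation p = 1e-05, adjusted p = 6.81e-06). Nr1d1 and Dbp, both E-box targets, had r = 0.36 and rho = 0.35 (permutation p = 1e-05, adjusted p = 1.36e-05), and an r of 0.41 without mouse OB-547. Cry2 and Dbp had an r of 0.31 (permutation p = 0.00052, adjusted p = 2.44e-04) and 0.26 without mouse OB-547, but quantile normalization gave 0.10 and no call.

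The period genes depended on 1 library. Per2 and Per3 had an r of 0.49 over all mice (adjusted p = 4.77e-10), with a rho of 0.29, and an r of 0.25 without mouse OB-547 (rho 0.26, permutation p = 0.00072, adjusted p = 0.0180). The pair stayed called but at a lower value. Per1 and Per2 were called only without that mouse, at r = 0.28 and rho = 0.30 (permutation p = 0.00035, adjusted p = 0.0273). Per3 and Dbp turned from an r of -0.15 over all mice to 0.25 without mouse OB-547 (adjusted p = 0.0173). Per2 and Dbp were called at -0.25 over all mice and had 0.05 without it, with no call. Per3 and Nr1d2 were called over all mice at 0.18 (adjusted p = 0.0349), but not without mouse OB-547 or without the 2 mice farthest from the median of Per3, where r was 0.12.

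Arntl, the activator, was in 1 of the 2 negative pairs over all mice, beside Per2 and Dbp, and in the single one without mouse OB-547. Arntl and Dbp had r = -0.36 and rho = -0.22 over all mice (permutation p = 0.00016, adjusted p = 5.17e-05), and -0.23 with no call without mouse OB-547. Per3 and Arntl had r = -0.25 and rho = -0.23 without that mouse (permutation p = 0.00109, adjusted p = 0.0397). Nr1d2 and Dbp were called without it at 0.23 (permutation p = 0.00481, adjusted p = 0.00807), as were Nr1d1 and Tef at 0.20 (adjusted p = 0.0419). Cry1 was in no called pair, with r from -0.12 to 0.20 over all mice. The limma fit called none of the other 14078 genes with Cry1 either, while 1958 had an unadjusted p below 0.05, and 1 of its 9 clock pairs had a permutation p below 0.05.

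These counts were read against the share of all genes that moved with each clock gene. Without mouse OB-547, Dbp was called with 5 of 9 other clock genes against 35.2% of all genes by its own slope fit, Nr1d1 with 4 against 31.3%, Cry2 with 4 against 24.2% and Tef with 4 against 20.9%. Per3 was called with 3 of 9 against 6.98% of all genes and Per2 with 2 against 6.57%. Arntl was called with 1 against 2.16%, Per1 with 1 against 0.881% and Nr1d2 with 1 against 41.8%. Over all mice Dbp was called with 5 of 9 against 64% of all genes, Per2 with 3 against 51.6%, Per3 with 2 against 43.3%, Nr1d2 with 1 against 45.3% and Arntl with 1 against 36.4%, so each of these counts was a smaller share than that of all genes. Cry2 was called with 4 of 9 against 26.7%, Nr1d1 with 4 against 28.6% and Tef with 2 against 13.6%, and Per1 with 0 against 0.384%. The share of all genes that moved with Cry2 or Nr1d1 was thus similar in both fits, while for Per2, Per3 and Arntl most of it was lost without mouse OB-547.

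A fit chosen after seeing the data took the first 3 principal components of the deviations of all genes as covariates, without mouse OB-547. It called 4 pairs, all positive: Nr1d2 and Dbp at 0.46 (adjusted p = 2.77e-06), Nr1d1 and Dbp at 0.39 (4.04e-04), Cry2 and Dbp at 0.37 (0.00262), and Per3 and Nr1d2 at 0.34 (0.0187). In this fit 0.121% of all genes were called with Dbp against 3 of 9 clock genes, 0.0639% with Nr1d2 against 2 of 9, 0.852% with Nr1d1 against 2 of 9, 1.85% with Per3 against 2 of 9 and 0.114% with Cry2 against 1 of 9. Dbp was in 3 of the 4 pairs. For Per1, Per2 and Arntl, which had no call, 0.0923%, 0.107% and 0.0852% of all genes were called, and for Cry1 and Tef 0%. The r of Cry2 with Nr1d1 fell to 0.21 and that of Cry2 with Tef to 0.14, neither called.

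Over the means of the 99 strains more pairs were called, 19 of 45 (17 positive and 2 negative), and 22 without mouse OB-547 (18 positive and 4 negative). All 10 pairs called within strains without mouse OB-547 were also called over strain means without it. Cry2 and Nr1d1 had an r of 0.57 (permutation p = 1e-05, adjusted p = 2.23e-06), Nr1d2 and Dbp 0.56 (adjusted p = 3.42e-06) and Nr1d1 and Dbp 0.56 (adjusted p = 3.65e-06). With the 2 strains most distant from that median removed, these were 0.55, 0.55 and 0.52. Per1 and Per2 had an r of 0.51 (adjusted p = 1.00e-04), Per2 and Per3 0.47, Cry2 and Tef 0.47, Per1 and Tef 0.45, and Per1 and Cry2 0.43. Nr1d1 and Nr1d2, the REV-ERB genes, had 0.41 over strain means, with 0.24 and no call when the summed levels of the pituitary, choroid plexus and thalamus marker lists were covariates.

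All 4 negative pairs over strain means without mouse OB-547 were of Arntl, with Per2 at -0.40, Per3 at -0.37, Dbp at -0.37 and Tef at -0.29. In that fit Dbp and Tef were each called with 7 of 9 other clock genes, against 7.39% and 15% of all genes. Per1 was called with 6 of 9 against 14%, Cry2 with 5 against 21.5%, Nr1d1 with 5 against 9.25% and Nr1d2 with 4 against 21%. Per2 had 4 of 9 against 0.654%, Arntl 4 against 6.86% and Per3 3 against 1.07%. Cry1 was again called with no gene, while 675 had an unadjusted limma p below 0.05 and 1 of its 9 pairs a permutation p below 0.05. Over all mice the backgrounds were 20.4% for Nr1d2, 20.3% for Cry2, 18.6% for Per1, 16.4% for Per2, 14.6% for Tef, 9.38% for Dbp, 8.2% for Arntl, 8.11% for Nr1d1 and 5.36% for Per3.

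**Figure D3:**
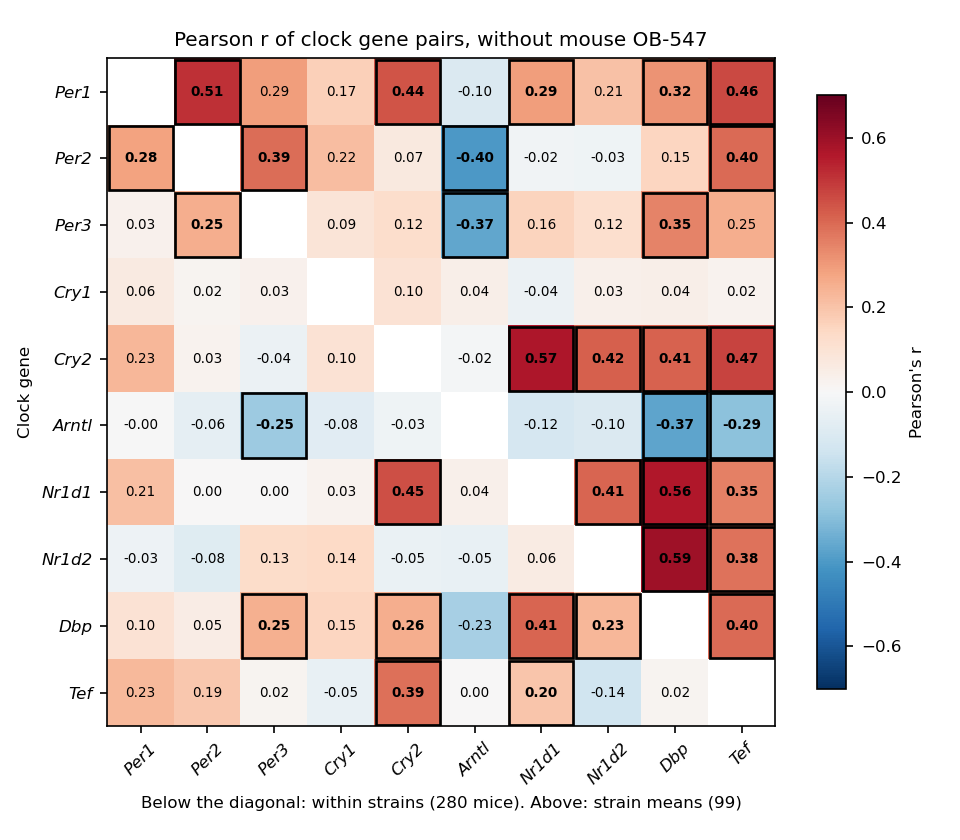
Pearson's r of the 45 pairs of clock genes without mouse OB-547, within strains over 280 mice below the diagonal and over 99 strain means above it, with called pairs in bold and boxed. Arntl has 4 boxed negative cells over strain means, from -0.29 to -0.40, and Cry1 has no boxed cell.

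Strain means can differ between sets of related strains, so the same pairs were computed within sets. Without mouse OB-547, Nr1d1 and Dbp had an r of 0.79 over the 43 BXD strains (permutation p = 1e-05), 0.22 over 18 AXB/BXA strains (p = 0.391) and 0.37 over 25 inbred strains (p = 0.0696). Cry2 and Nr1d1 had 0.73 in BXD (permutation p = 1e-05) and 0.76 in the inbred strains (p = 2e-05), but -0.34 in AXB/BXA (p = 0.171). Neither pair had a permutation p below 0.05 in the AXB/BXA set. Nr1d2 and Dbp had 0.62 in BXD (permutation p = 2e-05), 0.61 in AXB/BXA (p = 0.00791) and 0.33 in the inbred strains (p = 0.112). Per1 and Per2 had 0.77 in AXB/BXA (permutation p = 0.00016), 0.55 in the inbred strains (p = 0.0048) and 0.28 in BXD (p = 0.0667). Per2 and Arntl were negative in each of these sets, with -0.45 in AXB/BXA (permutation p = 0.0628), -0.37 in BXD (p = 0.0138) and -0.63 in the inbred strains (p = 0.00059).

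**Figure D4:**
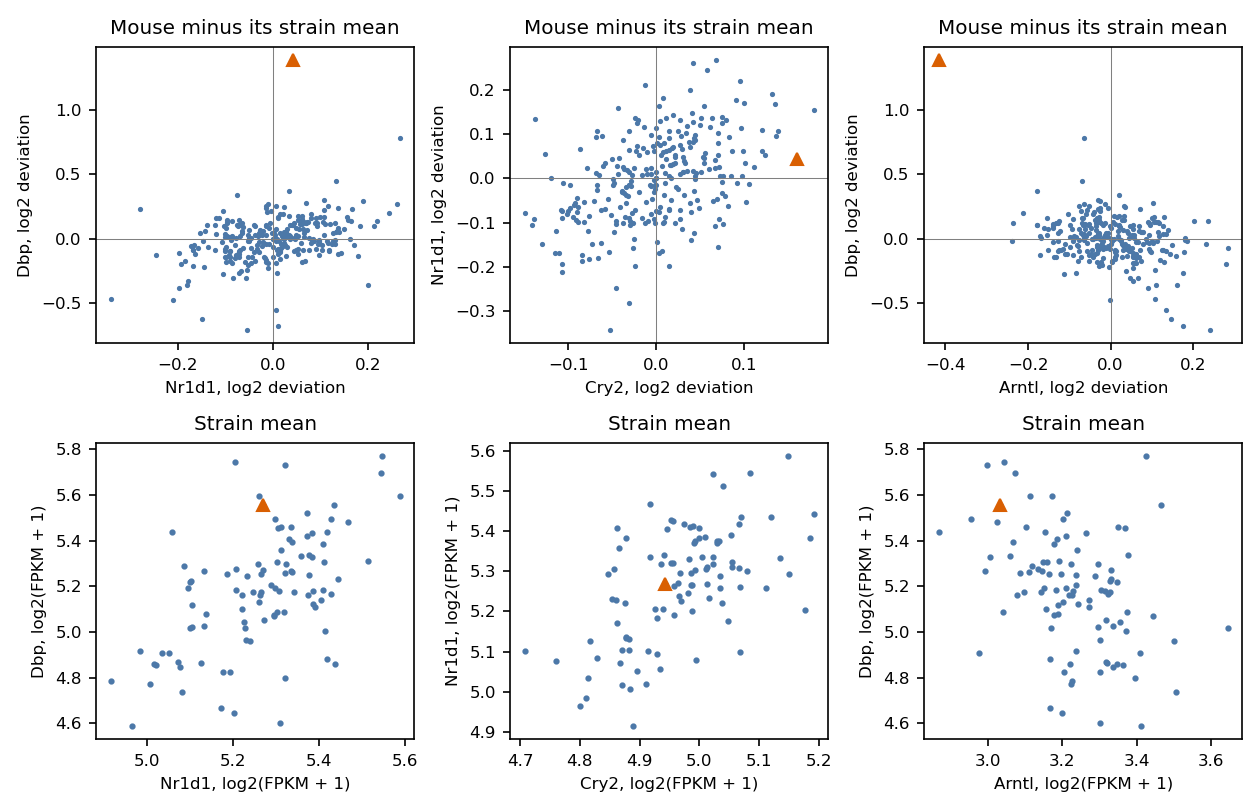
Nr1d1 against Dbp, Cry2 against Nr1d1, and Arntl against Dbp, as log2 deviations of the mice from their strain mean (top) and as strain means of log2(FPKM + 1) over 99 strains (bottom), with mouse OB-547 or its strain BXD-12/TyJ as a triangle. The pair Nr1d1 and Dbp has an r of 0.36 within strains and 0.56 over strain means, and mouse OB-547 lies alone at the top for Dbp.

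The slope of 1 clock gene on another was also compared between the 5 sets within strains. For Nr1d2 on Per2 the slopes differed over all mice (interaction F test of limma, adjusted p = 0.00178) and without mouse OB-547 (adjusted p = 0.00434). Without that mouse the r of Per2 and Nr1d2 was 0.76 in the CXB mice (n = 21), -0.81 in the BXH mice (n = 16), and -0.14, -0.12 and -0.16 in the AXB/BXA (n = 47), BXD (n = 125) and inbred mice (n = 71). The slope was 0.54 in CXB and -0.90 in BXH, and near -0.1 in the other 3 sets. Mouse OB-422 is in the CXB set, and without it r there was 0.72 over 20 mice. The CXB and BXH values rest on 7 and 6 strains. Over all mice the slopes on Per2 differed for 30.1% of all genes, on Per3 for 27.9%, on Dbp for 16%, on Arntl for 6.6%, on Cry2 and Nr1d2 for 0.0213%, on Nr1d1 for 0.0142% and on the others for 0%. Without mouse OB-547 the shares were 14.7% for Per2, 22.1% for Per3, 12.9% for Dbp, 0.234% for Nr1d2, 0.135% for Arntl and Nr1d1, and 0.0213% for Cry2, and the call of Nr1d2 on Per2 is to be read beside them.

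**Figure D5:**
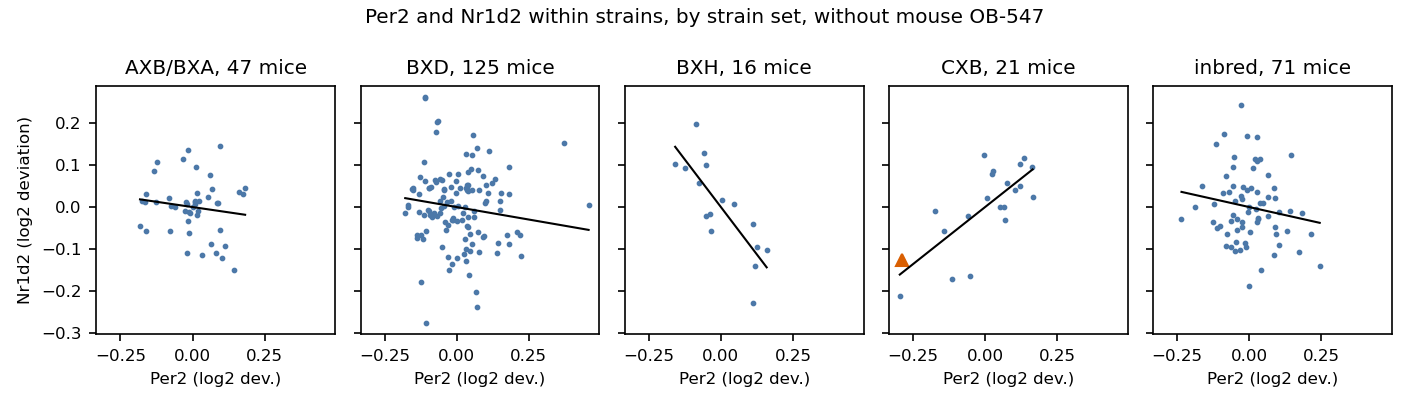
Log2 deviations of Nr1d2 (y axis) against those of Per2 (x axis) from the strain mean in each strain set without mouse OB-547, with the fitted slope as a line and mouse OB-422 as a triangle. The slope is 0.54 in the CXB mice and -0.90 in the BXH mice.

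The order in which the clock genes covaried was described by their angle, from Dbp at 0 degrees, in the plane of the first 2 principal components of the 10 genes. Within strains the components held 22.3% and 16.3% of the variance. Cry2 lay at 33.7 degrees, Nr1d1 at 42.3, Tef at 49.3 and Per1 at 75.5, followed by Per2 at 128, Per3 at 139 and Arntl at 161, with Cry1 at 349. Nr1d2 had a length of only 0.056 in this plane, where 1 is a gene that lies wholly in it, so its angle is not read. Without mouse OB-547 Arntl was at 150 degrees, Per2 at 42.0, and Per3 at 334. Over strain means Cry2, Nr1d2 and Nr1d1 were within 15 degrees of Dbp, Arntl was at 120, and Per2 at 279, Per3 at 295, Per1 at 315 and Tef at 333. With the 3 components of all genes removed, Nr1d2 lay at 4.59 degrees, Nr1d1 at 352, and Arntl at 173. Arntl was thus between 119 and 173 degrees from Dbp in each of these descriptions, with a length of 0.40 within strains over all mice. The axes were turned each time so that Dbp was positive on the first component and Arntl on the second. This choice sets the direction in which angles are counted, so the side of Dbp on which Arntl lay is not a result. The place of Per2 and Per3 moved with mouse OB-547 and with the level, and in part this can follow from that choice. The angles carry no clock time and no test.

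The mouse numbers in the titles were the single label by which mice of 1 strain differed, and what they stand for is not given. In 36 strains 2 mice had numbers within 3 of each other and 1 mouse a number at least 10 away. No gene differed more between far than between near mice by limma at an adjusted p below 0.05 (0% of 14079 genes, 615 at an unadjusted p below 0.05). Nr1d1 had the lowest p of the clock genes: its far differences exceeded its near ones by 0.067 ± 0.022 on the log2 scale (SE, 26 of 36 strains, unadjusted p = 0.00347, adjusted p = 0.998). For Dbp the value was 0.073 ± 0.046 (21 of 36 strains, unadjusted p = 0.121), and 0.104 ± 0.036 without mouse OB-547 (adjusted p = 0.791). Neither passed the adjusted threshold.

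The other genes of the clock were measured in part. Of 11 clock transcription factors 8 were in the table, and 6 differed between strains, near the 75.4% of all genes: Rora with a share of 0.441, Bhlhe40 0.434, Hlf 0.405, Rorb 0.308, Bhlhe41 0.203 and Nfil3 0.123. Clock, the partner of Arntl, had a share of -0.003 (adjusted p = 0.501) and Arntl2 one of 0.079 (adjusted p = 0.111). Of 10 measured kinases, ligases and partners of clock proteins 7 were called, led by Btrc (0.630), a ubiquitin ligase subunit that binds PER proteins. Of 15 measured clock output genes 14 were called, with a median share of 0.336 against 0.222 for all genes. Of 8 measured marker genes of the suprachiasmatic nucleus all 8 were called. The 7 of 10 kinases, ligases and partners were a smaller share than the 75.4% of all genes.

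Within strains the transcription factors moved with some clock genes and not with others. Without mouse OB-547, Nr1d2 was called with 6 of the 8 factors, all positive, where 41.8% of all genes were called with it. Per1, Per2 and Cry1 were called with none, where 0.881%, 6.57% and 0% of all genes were. With the 3 components of all genes as covariates none of the 6 calls of Nr1d2 was left, and its r with Rora went from 0.40 to 0.07. Clock and Dbp had an r of -0.44 (adjusted p = 9.41e-08), and -0.61 over all mice, but -0.03 with the 3 components as covariates (adjusted p = 0.943). Rora, which competes with the REV-ERB receptors for the RORE, had 0.40 with Nr1d2, 0.36 with Nr1d1, 0.33 with Cry2, 0.31 with Arntl and -0.32 with Per3. Bhlhe40, an E-box repressor, had 0.47 with Nr1d1 (adjusted p = 1.79e-09), and Hlf, the relative of Dbp and Tef, had 0.40 with Nr1d1 and 0.37 with Cry2. With the 3 components as covariates Rora had 0.19 with Cry2, 0.21 with Arntl and -0.05 with Per3, none called. Hlf then had 0.24 with Nr1d1 and 0.10 with Cry2, neither called. Rora with Nr1d1 (0.32) and Bhlhe40 with Nr1d1 (0.31) stayed called. Over strain means Nfil3, which represses through the D-box, had -0.44 with Dbp (adjusted p = 0.00253), and Rora had 0.57 with Cry2 and 0.53 with Nr1d1. Of the 15 output genes, Dbp was called within strains without mouse OB-547 with 7 positive and 3 negative, against 35.2% of all genes, and with 1 after the 3 components. Per1 was called over strain means without that mouse with 7, all positive, against 14% of all genes: Wee1, Tspan4, Por, Pdk4, Tsc22d3, Sgk1 and Hif3a.

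Among all genes, those most like a clock gene were named by the absolute r. Within strains over all mice these were Plec (0.37), Sgk1 (0.37), a kinase gene induced by glucocorticoids, and Ttyh1 (0.35) for Per1, and the values without mouse OB-547 were 0.37, 0.37 and 0.36. For Cry2 they were Clstn1 (0.62), Ncdn and Grin1, for Nr1d1 Ttc7b (0.59), Zyx and Rap1gap, for Tef Grin1, Mapk8ip2 and Caskin1, and for Nr1d2 Purb (0.62), Ptprn and Zer1, the latter both negative. For Per2, Per3 and Dbp the likeness rested on mouse OB-547: Phf2 with Per2 went from 0.63 to 0.42, Yeats2 with Per3 from 0.60 to 0.27, and Psmb3 with Dbp from 0.68 to 0.49 without it. Arntl was most like Zfhx2 (0.46, and 0.37 without that mouse), Trim9 and Ywhah. For Cry1 the nearest were Mmp17 (-0.33), Gm16240 (-0.31) and Gabra5 (-0.31), none called.

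Over strain means Per1 was most like Fgfr3 (0.60), Hif3a (0.59) and Mknk2 (0.58), and Per2 like Ets2 (0.59), Yeats2 (0.55) and C030046E11Rik (0.55). Cry2 was most like Zfp365 (0.69), Nr1d1 like Cnksr3 (0.57), Nr1d2 like Rab39b (0.68), Dbp like Upf3a (0.61), Arntl like Arhgap24 (0.57) and Tef like Foxo3 (0.59), a forkhead factor gene. Cry1 was most like Smad3 (-0.37), with an adjusted p near 0.98 and no call. For Per3 the nearest were Fbxo44 (-0.54) and Miip (-0.52), which lie 2.85 and 3.14 Mb from Per3 on chromosome 4, and then Fkbp4 (-0.50). Of the 111 genes within 5 Mb of Per3, 13 were called with it over strain means without mouse OB-547 (11.7%), against 138 of 13967 elsewhere (0.988%). For Per1 the same shares were 14.0% and 14.0%, and for Nr1d1 12.6% and 9.21%.

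Summed levels of tissue marker genes varied between mice, and some of the sums varied along with clock genes. The hypothalamus marker list, with 13 of 14 genes measured, summed to between 908 and 9529 FPKM in all mice. This sum does not measure the amount of hypothalamus. Pomc alone ran from 1.45 to 6851 FPKM, with a median of 24.2. The row of Oxt also holds Mrps26 and Ptpra, and that of Agrp holds Atp6v0d1, with lowest values of 162 and 102 FPKM. The thalamus list, 5 of 5 genes measured, ran from 17.4 to 381 FPKM (median 216), and the pituitary list from 0.589 to 16462 (median 25.8). Without mouse OB-547 the thalamus sum had an r within strains of 0.53 with Nr1d1, 0.35 with Cry2, 0.27 with Arntl, 0.25 with Nr1d2, -0.29 with Per3 and -0.21 with Per2. The list of the suprachiasmatic nucleus, 8 of 10 genes measured, ran from 124 to 2535 FPKM and had -0.39 with Nr1d2. Most of this sum was Avp, the vasopressin gene (mean 242 FPKM, highest 2493), which other hypothalamic neurons also express and which had -0.41 with Nr1d2 by itself. Rgs16 of the same list had 0.49 with Nr1d1 and Vipr2 0.32 with Arntl, while Vip had -0.27 with Nr1d1, so the list had no common direction. With the 3 components of all genes as covariates the largest r with a clock gene was 0.24 for Rgs16, 0.26 for Vipr2 and 0.14 for Vip, none called. With the pituitary, choroid plexus and thalamus sums as covariates Cry2 and Nr1d1 had an r of 0.34 within strains and 0.44 over strain means, both called. The part of other tissue in the clock gene differences beyond these values was not tested.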

How the data were processed

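Hypothalamus RNA of 282 male mice was sequenced from unstranded TruSeq v3 mRNA libraries. Per the labels and the study's methods, STAR 2.3.1 was the authors' aligner and mm10 their genome. Cufflinks 2.2.0 built transcripts for each strain, which were joined to GENCODE models, and the authors deposited FPKM values from Cuffnorm 2.2.1 for genes, transcripts, start sites and coding sequences. They kept features seen (FPKM over 0) in 100 or more mice and over 1 FPKM in 50 or more, and the values meet this. FPKM carry no read counts, so the depth behind a value is unknown here and no counting interval was given. Every column was matched to a sample (0 without one). Mouse OB-627 carries 2 strain names in the labels and was left out of comparisons between strains.

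Values were analysed as log2(FPKM + 1) with limma 3.58.1 in R 4.3.3, over all rows of a level, with Benjamini-Hochberg adjustment and a threshold of 0.05. A fold change on this scale understates that of low genes. The strain share, an intraclass correlation of mean squares, can fall below 0. Correlations used 100000 permutations, within strains for deviations, run under Python 3.11.15 (scipy 1.17.1, pandas 2.3.3, numpy 2.4.6), and matplotlib 3.10.9 drew the plots. Each correlation family held 45 pairs at each of 2 levels. The scripts were tested on simulated data. Numbers of mapped reads given with the study served only as covariates. Promoters and their sequences were from RefSeq. The members and gene lists were chosen with earlier results of these data known. Genes named beyond them were the 3 with 1 gene name and the largest absolute r with a clock gene at each level, the clock transcription factors, at most 4 of each other list, and strains with the 2 highest and 2 lowest means. Output genes called with Per1 were named after their values were seen.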

Additional observations from a re-analysis of the deposited data

Results flagged for a closer look

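The slope of 1 clock gene on another within strains differed between the 5 strain sets in 6 cases over all mice, by the interaction F test of limma adjusted over all genes. These were Nr1d2 on Per2 (adjusted p = 0.00178), Dbp on Per2 (0.0162), Arntl on Per3 (0.0366), Dbp on Per3 (0.0183), Per2 on Dbp (0.0282) and Per3 on Dbp (0.0177). Without mouse OB-547, a BXD mouse, 2 were left, Nr1d2 on Per2 (0.00434) and Per2 on Nr1d2 (0.0379, where all mice gave 0.516). In the BXD mice r went from -0.46 to 0.05 for Per2 and Dbp, from -0.33 to 0.32 for Per3 and Dbp, and from 0.19 to -0.20 for Per3 and Arntl when that mouse was left out.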

How the results depend on the processing

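All 10 clock genes kept their strain call under each alternative except Cry1, which lost it without replicate 1 or 2, so that 9 to 10 were called, and a Kruskal-Wallis test over strains, with its large-sample p, called all 10 (73.7% of all genes). Pairs called within strains numbered 8 over all mice, 3 without replicate 2 of each strain of 3, 3 to 7 over the 3 such omissions, and 4 with 3 principal components of all genes as covariates and without mouse OB-547. Over strain means the range was 15 to 22 pairs. The r within strains changed sign for Per2 and Dbp, from -0.25 to 0.053 without mouse OB-547, 0.15 without mice OB-547 and OB-422, 0.22 with the components and 0.015 without replicate 2, in a range of -0.40 to 0.015 over the 3 omissions. It also did for Per3 and Dbp, from -0.15 to 0.25 without mouse OB-547, 0.36 without both mice and 0.22 by Spearman's rho. With the joint row of Car11 and Dbp in place of the Dbp transcripts, the r of Nr1d2 and Dbp over strain means was 0.34 and Cry2 and Dbp lost the call at 0.24. The angle of Arntl was 161 degrees over all mice, 150 without mouse OB-547, 159 with a pseudocount of 0.1 and 120 over strain means. Founder contrasts gave 2 calls, 1 with both strains alone and 1 to 3 when a mouse was left out. Slopes between sets gave 6 calls and 2 without mouse OB-547. Transcripts called numbered 24, and 20 with a pseudocount of 0.1 (43.9% of all transcripts). The settings without both mice, with the components and with the joint row were chosen after seeing the data. No paired analysis was made. The labels carry no replicate numbers, and those used here follow the order of the mice of a strain in the series. Causes of these shifts were not tested, and the omissions also left fewer mice. Collection hour, cell composition and read depth limit what the levels can show, and p-values measure the spread between mice as housed and sampled.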

Other observations

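With the 3 principal components of all genes as covariates and without mouse OB-547, Per1 had a positive r within strains with some genes. They were named after their values were seen: Sgk1 (r = 0.39), Mat2a (0.37), Fos (0.36), Ddit4 (0.34), Nr4a1 (0.33), Tsc22d3 (0.32), Egr1 (0.31) and Dusp1 (0.30). Per2 in the same fit was alike to Gpt2 (0.38), Adipor2 (0.38), Glul (0.37), Slc2a1 (0.33) and Klf15 (0.30). Dbp had negative values with Cdkn1a (-0.38), Nfil3 (-0.31) and Bdnf (-0.31), and Nr1d1 positive ones with Rora (0.32) and Bhlhe40 (0.31). This fit called 0.0923% of all genes with Per1, 0.107% with Per2, 0.121% with Dbp and 0.852% with Nr1d1. Which genes are named here was chosen after their values were seen, so the kinds of genes listed are not a result.

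Strains whose mouse numbers all lay within 3 of each other (60 strains) had a strain share of 0.537 for Arntl, 0.602 for Nr1d2 and 0.174 for Cry1, and strains with 1 mouse at least 10 away (36 strains) had 0.331, 0.618 and 0.114. The median over all genes was 0.262 and 0.181, so for Arntl and Cry1 the difference went the way of the median gene. Mouse OB-547 is in the second group. Without it that group had 0.385, 0.618 and 0.123, and a median over all genes of 0.232. Per3 then had 0.609 there against 0.569 in the first group, and Dbp 0.624 against 0.533, where all mice gave 0.403 and 0.406 in the second. The clock genes other than Per3, Dbp and Nr1d2 stayed lower in the second group. The difference was not tested. The CXB strains had a mean Dbp level of 43.5 ± 9.65 FPKM (SD, 7 strains), against 35.0 ± 7.51 in BXD and 34.8 ± 5.80 in AXB/BXA. Mouse OB-422 is 1 of the CXB mice.

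Mouse OB-627, whose labels name 2 strains, had 10.4 FPKM of Per1, 4.30 of Per2, 10.03 of Per3, 6.94 of Cry1, 32.5 of Cry2, 7.22 of Arntl, 42.6 of Nr1d1, 33.0 of Nr1d2, 48.1 of Dbp and 61.5 of Tef, each within the range of the other mice.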
